A study of Mus musculus with 13 samples.

Results

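Replication-dependent histone genes make the histone proteins that package newly copied DNA. They are small genes without introns, they lie in clusters, and many sit head to head so that neighbouring genes share a stretch of upstream DNA. Their messages are made mainly while DNA is copied, with the help of the coactivator NPAT, and end in a stem-loop instead of a poly(A) tail. H2A, H2B, H3 and H4 form the core of the nucleosome and H1 binds the linker DNA. The K27M mutation studied here lies in the histone variant H3.3, which is made by genes outside these clusters and is used also when DNA is not being copied.

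Members were all protein-coding genes of the GENCODE M21 annotation whose names begin with Hist1h, Hist2h, Hist3h or Hist4h, which gave 67 of 21938 genes. They comprised 6 H1, 18 H2A, 18 H2B, 12 H3 and 13 H4 genes. Of these, 54 lay in the Hist1 cluster on chromosome 13, 10 in the Hist2 cluster on chromosome 3, 2 in the Hist3 cluster on chromosome 11 and 1, Hist4h4, on chromosome 6. The choice used gene names alone and no measured value, although earlier results of these data were known when it was made.

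Open chromatin was mapped by Omni-ATAC-seq, in which a transposase cuts accessible DNA, in 13 libraries of cultured oligodendrocyte precursor cells (OPCs), the dividing cells that give rise to myelinating oligodendrocytes. There were 3 control brainstem libraries (cultures 51, 59 and 61), 3 K27M brainstem libraries (cultures 41, 59 and 61), 3 control telencephalon libraries (cultures 51, 59 and 61) and 4 K27M telencephalon libraries (cultures 41, 51, 59 and 61). All cultures were started from AMGFAP-Cre;K27M litters, spelled as in the labels, at postnatal day 5 to 7. Tissue of several pups was pooled by region and genotype, cells were enriched by panning for PDGFRa, and all cultures were held in proliferation medium without differentiation. The telencephalon pool held cortex, corpus callosum and hippocampus, although its sample labels name cortex as the tissue. In K27M cultures the mutant H3.3 came from a knock-in at the H3.3 gene H3f3a that Cre, driven by a GFAP promoter in neural stem and progenitor cells, had switched on. Controls came from the same litters, and for its transcriptome data the study describes littermate controls as lacking Cre. The lists of called peaks held 16879 to 52466 peaks per library, and the smallest belonged to control telencephalon culture 59. No read counts come with the lists and depth is unknown, so a missing peak means not called in that library and not closed chromatin. Of the 5 OPC markers, Pdgfra, Olig1, Olig2 and Sox10 had a promoter peak in all 13 libraries and Cspg4 in 3. Among markers of other cells, Gfap of astrocytes and Snap25, Syt1 and Tubb3 of neurons also had one in all 13, and the neuronal Rbfox3 and the astrocytic Slc1a3, Aqp4 and Aldh1l1 had one in 11, 11, 8 and 4. Of the microglial markers P2ry12 had one in 12 libraries, Tmem119 in 4, Aif1 in 2 and Cx3cr1 and Csf1r in none. Of the endothelial markers Cldn5 had one in 3, Pecam1 in 1 and Cdh5 in none, and of the oligodendrocyte markers Mobp had one in 1 and Mog and Mag in none.

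Of the 67 members, 62 matched a RefSeq gene with a promoter sequence (GRCm38.p6, 250 bases before to 50 after the start). The promoters of the leading H3, H4 and H2A peaks are printed first, because their peaks ranked highest within these types. A Hist2 H2A gene and an H1 gene follow as examples without a peak, and the former carries the CCAAT box, octamer and TATA box that are marked in Hist1h2ac. Capitals mark the TATA box (TATAAA), the letters of the CCAAT box, the octamer (ATTTGCAT) and the letters GGTCCG, each on either strand.
Hist1h3e: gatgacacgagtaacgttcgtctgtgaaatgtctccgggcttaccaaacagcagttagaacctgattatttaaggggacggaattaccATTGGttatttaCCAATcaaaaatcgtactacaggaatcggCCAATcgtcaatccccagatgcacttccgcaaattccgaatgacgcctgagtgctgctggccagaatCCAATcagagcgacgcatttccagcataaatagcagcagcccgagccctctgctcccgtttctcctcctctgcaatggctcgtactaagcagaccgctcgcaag
Hist1h4c: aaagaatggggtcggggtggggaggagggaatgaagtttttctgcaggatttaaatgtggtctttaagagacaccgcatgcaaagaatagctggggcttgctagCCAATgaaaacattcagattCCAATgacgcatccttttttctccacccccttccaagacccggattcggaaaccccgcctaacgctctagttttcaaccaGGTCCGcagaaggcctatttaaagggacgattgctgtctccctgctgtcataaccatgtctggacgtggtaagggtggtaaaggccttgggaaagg
Hist1h2ac: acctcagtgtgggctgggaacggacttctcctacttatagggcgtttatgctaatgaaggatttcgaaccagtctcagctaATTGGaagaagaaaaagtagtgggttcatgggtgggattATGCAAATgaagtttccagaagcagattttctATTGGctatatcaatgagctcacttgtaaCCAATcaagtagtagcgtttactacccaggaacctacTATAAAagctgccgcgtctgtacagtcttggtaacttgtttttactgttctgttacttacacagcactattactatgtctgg
Hist2h2ac: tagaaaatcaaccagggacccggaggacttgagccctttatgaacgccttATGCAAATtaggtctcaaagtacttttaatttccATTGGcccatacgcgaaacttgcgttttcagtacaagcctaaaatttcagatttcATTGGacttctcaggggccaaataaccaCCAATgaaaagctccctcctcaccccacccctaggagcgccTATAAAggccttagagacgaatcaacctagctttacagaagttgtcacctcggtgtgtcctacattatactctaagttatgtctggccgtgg
Hist1h1b: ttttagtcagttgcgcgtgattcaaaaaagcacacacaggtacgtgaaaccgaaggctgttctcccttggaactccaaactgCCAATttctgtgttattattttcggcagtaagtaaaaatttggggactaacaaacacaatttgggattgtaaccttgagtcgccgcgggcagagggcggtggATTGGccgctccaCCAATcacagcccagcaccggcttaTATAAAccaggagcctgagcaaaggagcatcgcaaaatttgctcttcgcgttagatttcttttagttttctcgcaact
The windows are chr13:23562336-23562635, chr13:23698409-23698708, chr13:23683910-23684209, chr3:96220831-96221130 and chr13:21780576-21780875, in this order and all on the minus strand.

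The elements differed in frequency between histone types. Each motif was searched on both strands in the window of each matched member, and a match is a description of letters and not of a bound factor. Windows of head-to-head pairs such as Hist1h2ae and Hist1h2bg overlap, so 1 site can count for both genes. CCAAT was in all 18 H2A, 16 H2B, 10 H3 and 6 H1 windows but in 3 of 12 H4 windows, compared with 37.4% of all 32817 RefSeq promoter windows. GGTCCG was in 11 of 12 H4 windows, in 1 H2B and 1 H3 window and in no H1 or H2A window, against 8.25% of all windows. The octamer, which the factor OCT1 (Pou2f1) recognises, was in 7 H2A and 6 H2B windows and in no other member's, against 1.74% of all windows. TATAAA was in 35 of the 62 windows (56.5%, against 13.6% of all), the GC box GGGCGG in 23 (37.1%, against 35.6%) and the cyclic AMP response element TGACGTCA in 4 (6.45%, against 1.79%). The elements were also counted in the 33 matched members with a promoter peak in all libraries and in the 22 without any, with no test. TATAAA was found in 54.5% of both and CCAAT in 84.8% and 90.9%. The octamer was found in 27.3% and 18.2%, GGTCCG in 21.2% and 13.6% and GGGCGG in 33.3% and 36.4%. TGACGTCA was found in 4 members with a peak and in 0 without. For Hist1h4c, printed above, CCAAT is thus the exception among H4 windows and GGTCCG the rule.

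A member was counted as having a promoter peak when a called peak overlapped the window from 2 kb upstream to 1 kb downstream of any of its annotated starts. By this measure 36 members (53.7%) were detected in all 13 libraries, 7 in some and 24 (35.8%) in none. Over all coding genes the shares were 42.0% and 30.6%. Each library had between 37 and 43 members with a peak (mean 41.5 ± 1.71, SD, n = 13). The number was 40, 40 and 43 in control brainstem cultures 51, 59 and 61, 42, 43 and 41 in K27M brainstem cultures 41, 59 and 61, and 42, 37 and 43 in control telencephalon cultures 51, 59 and 61. In K27M telencephalon it was 43, 42, 42 and 42 in cultures 41, 51, 59 and 61. The lowest number came from the smallest peak list, and the other groups' ranges overlapped. The share of members with a peak was above the share of coding genes in 11 of 13 libraries, as the plot of both shares shows.

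**Figure D1:**
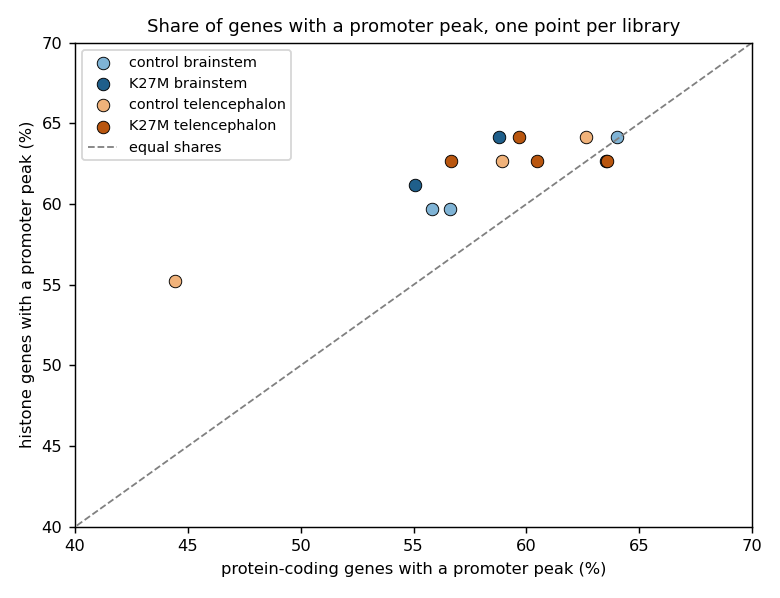
Share of the 67 histone genes with a promoter peak (vertical axis, %) against the share of all 21938 protein-coding genes (horizontal axis, %), with one point per library coloured by group; both axes start at 40%. The histone share lies between 55.2% and 64.2%, above the dashed line of equal shares in 11 of 13 libraries, and control telencephalon culture 59 stands apart at 44.4% of coding genes.

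The groups did not separate in the numbers of members with a peak. Among the 7 members with a peak in some libraries, 2 were detected in 5 to 8 libraries and could be tested. Hist1h2be, an H2B gene, was detected in 3 of 6 brainstem and 5 of 7 telencephalon libraries (Fisher's exact test, p = 0.592, adjusted p = 1). It had one in 5 of 7 K27M and 3 of 6 control libraries (Fisher's exact test, p = 0.592, adjusted p = 1). Hist1h2ak, an H2A gene, was detected in 3 of 6 brainstem and 3 of 7 telencephalon libraries and in 4 of 7 K27M and 2 of 6 control libraries (Fisher's exact test, p = 1 and 0.592). Of the 962 coding genes tested, 0% passed by region and 0% by genotype after adjustment, and 1.46% and 1.25% had an unadjusted p under 0.05. The other 5 were the H4 gene Hist1h4b, found in 10 libraries, and Hist1h1d, Hist1h2bn, Hist1h4d and Hist1h4f, each found in 12. Of these, Hist1h1d, Hist1h4d and Hist1h4f were missing from control telencephalon culture 59 and Hist1h2bn from control brainstem culture 51. Hist1h4b was missing from control brainstem culture 59, K27M brainstem culture 61 and control telencephalon culture 59.

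In 4 of these 7 members the peak lay away from the annotated start. The peaks of Hist1h2ak, Hist1h2bn, Hist1h1d and Hist1h2be never covered the gene's own GENCODE start. Hist1h2ak and Hist1h2bn, a divergent pair whose starts lie 296 bp apart, were reached by the edge of the peak at Hist1h4k or by a separate small peak next to it, and neither had a peak within 500 bp of its start in any library. The GENCODE start of Hist1h1d, a linker histone gene, lies 1770 bp from the RefSeq start. On the RefSeq window all 13 libraries had a peak, with a mean fold enrichment over local background of 3.415 ± 0.344 (SD, n = 13) at a percentile of 70.8 ± 14.8. Hist1h2be has a second RefSeq start 35108 bp from the nearest GENCODE start. All 13 libraries had a peak on that window (3.01 ± 0.285, SD, n = 13). On RefSeq windows 31 of the 62 matched members had a peak in all libraries.

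Members without any peak lay together. All 10 Hist2 genes had none, namely Hist2h2ab, Hist2h2ac, Hist2h2be, Hist2h3c2, Hist2h2aa2, Hist2h2aa1, Hist2h3c1, Hist2h4, Hist2h3b and Hist2h2bb. They fell in 1 interval without a peak in any of the 13 lists, chr3:96195882-96289986 (94.1 kb), which holds 1 further coding start, Bola1. Within the Hist1 cluster the neighbours Hist1h1b, Hist1h3i, Hist1h2an, Hist1h2bp, Hist1h2bq, Hist1h2ao, Hist1h4m, Hist1h4n, Hist1h2ap and Hist1h2br shared a second such interval, chr13:21753121-21854911 (102 kb). It began directly beside the peak of Hist1h4k. The remaining 4 were Hist1h1e, a linker histone gene 1800 bp from the nearest peak, and the testis histone genes Hist1h1t, Hist1h2ba and Hist1h2aa. Hist1h2ba and Hist1h2aa share an interval of 96.7 kb with Slc17a4. Peak-free intervals of this length were common, with a median of 130.5 kb around the 6687 other coding genes without a promoter peak.

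Near-identical copies lie in these intervals, and a read that matches several copies cannot be placed on 1 of them. Uniqueness was measured as the share of 75-base words within 500 bp of the gene start that occur once in the genome. It was 0% for Hist1h2bq, Hist1h2ao, Hist1h2ap and Hist1h2br, 8.09% for Hist1h4n, Hist2h3c1 and Hist2h3c2 and 8.63% for Hist1h4m. Of the 11 members under 50%, 10 had no peak, and of the 1066 coding genes under 50% the share without any peak was 93.6%. Of the 56 members at or above 50%, 14 (25%) had none, against 27.4% of such coding genes. Hist1h1b, Hist2h4, Hist2h2bb, Hist1h1t and Hist1h2aa had no peak although all their words were unique. Reads in regions that the ENCODE blacklist names had been removed by the authors, and that list was not used here. The part of either in the missing peaks was not tested.

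The 43 members with a peak rested on few separate peaks. When the peaks of all libraries were merged, they fell on 24 merged peaks, 20 of them found in all 13 libraries. Of the 24, 11 touched the promoter of 1 member, 7 of 2, 5 of 3 and 1 of 4 members, so the genes are not independent measurements. Pairs of H2A and H2B genes facing away from each other within 1000 bp numbered 12, with 176 to 306 bp between their starts. In 6 pairs 1 peak covered both promoters in all 13 libraries: Hist1h2ai with Hist1h2bl, Hist1h2ah with Hist1h2bk, Hist1h2ag with Hist1h2bj, Hist1h2ae with Hist1h2bg, Hist1h2ad with Hist1h2bf, and Hist1h2ac with Hist1h2bc. In 5 pairs neither gene had a peak in any library, and the last was Hist1h2ak with Hist1h2bn. A mixed pair, Hist1h2bh with the H3 gene Hist1h3f (660 bp apart), also shared 1 peak in all 13 libraries.

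Counted once for each gene, peaks at member promoters were broad and mostly of moderate height. A peak shared by several members thus counts several times in the members' medians below. The percentile of a peak is its rank by fold enrichment among all peaks of its own library, where 100 is the highest. The 36 members with a peak in all libraries had a median mean percentile of 58.6 (range 6.60 to 89.7) and a median fold enrichment of 3.12. The 9211 coding genes with a peak in all libraries had medians of 75.7 and 3.56. Of the 36 members, 26 lay below the coding median, as did 12 of the 20 merged peaks. Peak width went the other way. The members' median width was 2141 bp against 1145 bp. Wider than the 90th percentile of coding genes, 1737 bp, were 21 of 36 members and 8 of the 20 merged peaks. Hist1h2af and Hist1h3g were among these members, but the merged peak they share with Hist1h4h had a mean width of 1623 bp. Of the 6 peaks shared by 3 or 4 members, 5 had a mean percentile of 11.4 to 41.6, as the plot of width against percentile shows. Over the 20 merged peaks, which share libraries and neighbours, Spearman's rho of width and percentile was -0.39, and it was -0.14 over the 9211 coding genes.

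**Figure D2:**
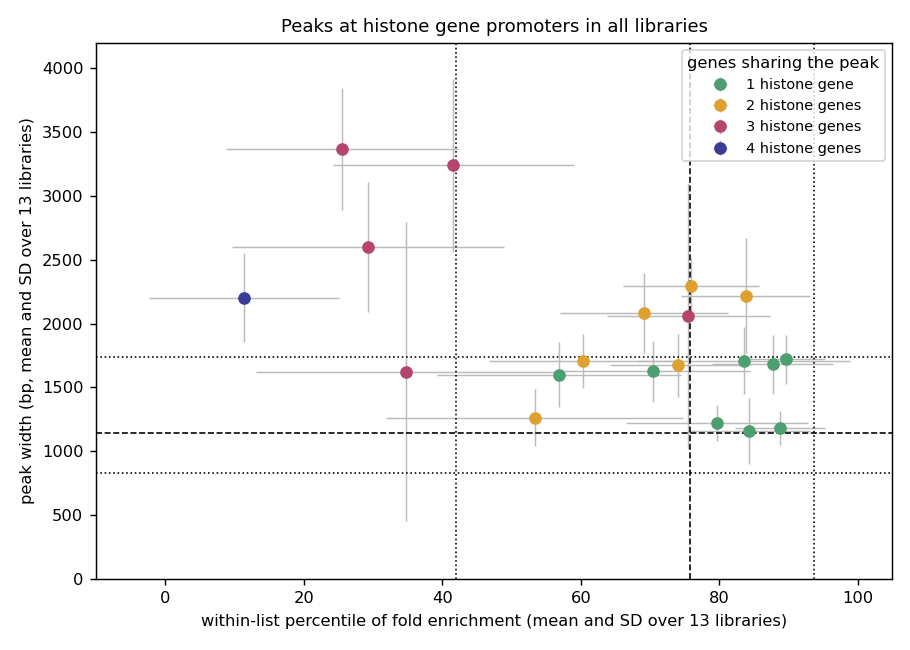
Width (vertical axis, bp) against within-list percentile of fold enrichment (horizontal axis) for the 20 merged peaks found at histone promoters in all libraries; points are means over 13 libraries, bars are SD, and colour gives the number of histone genes that share the peak. The dashed lines are the medians of coding genes with a peak in all libraries (1145 bp and 75.7) and the dotted lines their 10th and 90th percentiles, and 8 peaks lie above the upper dotted line of 1737 bp.

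Counted by gene, members had on average a higher share per library than coding genes at a stricter threshold. A peak shared by several members counts for each of them in this share. With only peaks of p at most 1e-10, 40.4% of members and 24.0% of coding genes had a promoter peak on average over libraries, and the members' share was the higher in 12 of 13 libraries. The exception was control telencephalon culture 59, with 1 member (1.49%) against 4.06% of coding genes. The gene that kept a peak in all 13 libraries at that threshold was Hist4h4, 1 of 67 members. Of the 21938 coding genes 760 did so, and by this count the members' share was the lower. When that culture was left out, 12 members kept a peak in all libraries, and the number of coding genes is not given for that setting.

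The percentiles of the H1, H2A, H2B, H3 and H4 genes overlapped widely. The medians were 56.6 for 2 H1, 53.3 for 9 H2A, 63.0 for 10 H2B, 44.8 for 8 H3 and 75.55 for 7 H4 genes with a peak in all libraries. The ranges ran from 25.5 to 87.7 for H1, 8.10 to 83.8 for H2A, 11.4 to 83.8 for H2B, 6.60 to 89.7 for H3 and 25.5 to 88.8 for H4. Neighbours of different type shared peaks, so type was not tested. The single Hist4 gene had a percentile of 84.4 and the Hist3 genes Hist3h2a and Hist3h2ba had 70.5 and 56.9, within the range of the Hist1 cluster.

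Hist1h3e, which encodes a replication-dependent H3, had the highest mean percentile (89.7 ± 5.58, SD, n = 13). Its fold enrichment was 4.23, 3.90 and 4.44 in control brainstem cultures 51, 59 and 61 and 4.51, 4.34 and 3.39 in K27M brainstem cultures 41, 59 and 61. It was 3.60, 3.20 and 4.13 in control telencephalon cultures 51, 59 and 61 and 3.92, 4.87, 4.08 and 3.80 in K27M telencephalon cultures 41, 51, 59 and 61. The 4 groups overlapped, and the percentile was between 78.1 and 95.8 in all 13 libraries. The H4 gene Hist1h4c followed at 88.8 ± 6.45, with fold enrichments from 3.27 to 5.23 and a median of 3.95. Hist4h4 stood at 84.4 ± 8.81 and had the least wide of these peaks (1160 ± 259 bp). The linker histone gene Hist1h1c stood at 87.7 ± 8.69 and the other H1 gene with a peak in all libraries, Hist1h1a, at 25.5 ± 16.8.

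Hist1h2ac and Hist1h2bc, an H2A and an H2B gene on 1 peak, had the highest percentile of either type (83.8 ± 9.36, SD, n = 13). Their fold enrichment was 4.02, 4.15 and 4.08 in control brainstem cultures 51, 59 and 61 and 3.90, 4.01 and 3.13 in K27M brainstem cultures 41, 59 and 61. It was 3.58, 3.23 and 3.36 in control telencephalon cultures 51, 59 and 61 and 3.38, 3.97, 4.11 and 3.91 in K27M telencephalon cultures 41, 51, 59 and 61. In this uncentred measure the 3 control brainstem values were above the 3 control telencephalon values, and the K27M values of both regions overlapped. The share of coding genes separated this way is not given. By percentile the control groups overlapped. Control brainstem cultures 51, 59 and 61 were at 91.2, 94.4 and 83.4. Control telencephalon cultures 51, 59 and 61 were at 89.5, 79.5 and 65.2. Next came Hist1h2ah for H2A (74.0 ± 9.74, shared with Hist1h2bk), Hist1h2bm for H2B (79.7 ± 13.1) and Hist1h3f for H3 (75.9 ± 9.83, shared with Hist1h2bh).

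The low end held members on wide and on narrow peaks. Hist1h3g, an H3 gene, had a mean percentile of 6.60 ± 6.70 and a fold enrichment between 2.13 and 2.49 in all libraries. Hist1h2af, its H2A neighbour, was at 8.10 ± 7.995, and in 12 of the 13 libraries both genes lay on the same peak. The peak shared by Hist1h2ad, Hist1h2bf and Hist1h3d was at 11.4 ± 13.7. Hist1h4a, the lowest H4 gene with a peak in all libraries, shared the widest peak with Hist1h1a and Hist1h3a (3367 ± 477 bp), at a percentile of 25.5 ± 16.8. Hist1h4f and Hist1h1d shared a narrow peak (823 ± 326 bp, n = 12) at a percentile of 15.1 ± 13.9. The least wide was that of Hist1h4b (528.5 ± 124.5 bp, n = 10), at a percentile of 16.5 ± 21.9.

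**Figure D3:**
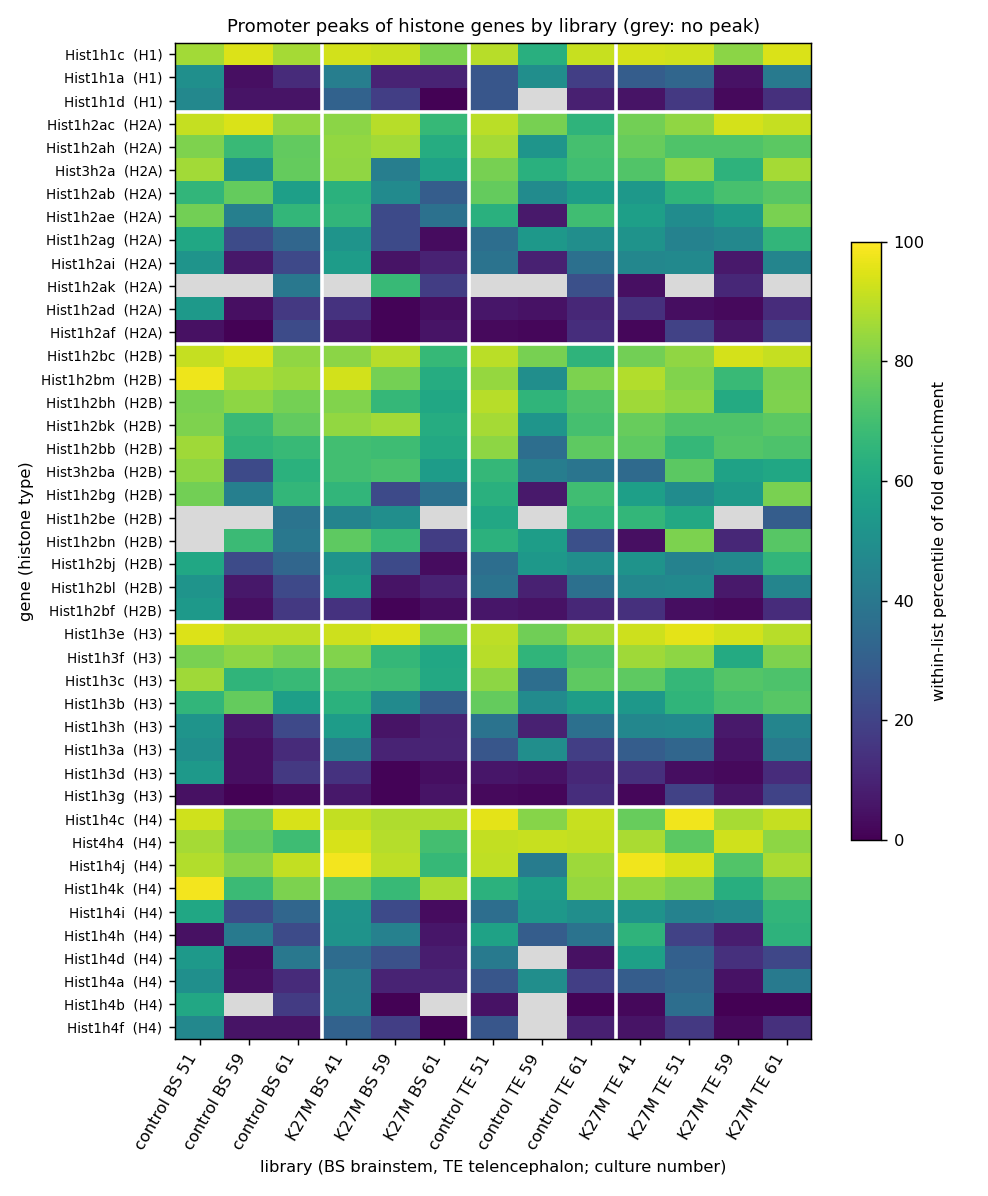
Within-list percentile of fold enrichment (colour, 0 to 100) of the 43 histone genes with a promoter peak in at least 1 library (rows, grouped by histone type and ordered by mean percentile) in each of the 13 libraries (columns, grouped by region and genotype); grey marks no peak. Hist1h1c, Hist1h2ac, Hist1h2bc, Hist1h3e and Hist1h4c lead their types, with means of 83.8 to 89.7, and genes on a shared peak have rows alike or nearly so.

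The regional comparison asked whether OPCs from brainstem and telencephalon differ in accessibility at these promoters. No member passed in fold enrichment (0 of 36, limma on log2 fold centred on each library's median, with the culture number as a block), and 0 of 36 had an unadjusted p under 0.05. Of the 9211 coding genes tested, 0.0109% passed and 5.07% had an unadjusted p under 0.05. The brainstem minus telencephalon difference of the members ranged from -0.15 to 0.12 on the log2 scale, a ratio of 0.902 to 1.09, and its median was -0.03 against -0.0065 for all genes. The difference was below 0 for 27 members and above 0 for 9, but without centring it was above 0 for 29, with the median of all genes at 0.07. With 1 row per merged peak the centred difference was below 0 for 13 of 20 peaks. It was above 0 for 46.0% of all 8528 merged promoter peaks. No member's 95% interval reached below -0.32 or above 0.25, the bounds set by Hist1h4h and Hist1h2bm. Without control brainstem culture 51, 8 of 37 members had an unadjusted p under 0.05 by region, against 5.78% of the 9250 genes then tested, and none passed (limma, smallest adjusted p = 0.820). All 8 were lower in brainstem, and they were Hist1h1a, Hist1h3a and Hist1h4a on 1 peak, Hist1h2ag, Hist1h2bj and Hist1h4i on another, Hist1h3g and Hist4h4. Without K27M telencephalon culture 51 the count was 4 of 36, against 5.80% of all genes.

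The smallest p by region belonged to the peak of Hist1h2ag, Hist1h2bj and Hist1h4i. Its fold enrichment was 3.14, 2.73 and 2.79 in control brainstem cultures 51, 59 and 61 and 2.88, 2.73 and 2.23 in K27M brainstem cultures 41, 59 and 61. It was 2.55, 2.88 and 3.01 in control telencephalon cultures 51, 59 and 61 and 2.84, 2.77, 2.95 and 3.08 in K27M telencephalon cultures 41, 51, 59 and 61. The regions overlapped, and the log2 difference was -0.15 (SE 0.08, limma, unadjusted p = 0.0643, adjusted p = 0.957). It was -0.26 without control brainstem culture 51 and -0.0942 without K27M telencephalon culture 61. In the other direction the H2B gene Hist1h2bm differed by 0.12 (SE 0.07, limma, adjusted p = 0.957). Its fold enrichment was 4.55, 3.80 and 4.18 in control brainstem cultures 51, 59 and 61 and 4.57, 3.64 and 3.04 in K27M brainstem cultures 41, 59 and 61. It was 3.38, 2.84 and 3.84 in control telencephalon cultures 51, 59 and 61 and 3.72, 3.86, 3.28 and 3.43 in K27M telencephalon cultures 41, 51, 59 and 61. Brainstem and telencephalon values overlapped here also. Hist3h2ba and Hist1h4k, the next in that direction, differed by 0.09 each (limma, adjusted p = 0.985 for both). Without control brainstem culture 51 the differences of Hist1h2bm, Hist3h2ba and Hist1h4k were 0.0663, 0.0266 and -0.0244.

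The comparison of genotypes asked whether H3.3 K27M changes accessibility at these promoters. No member passed (0 of 36, limma, 0 at an unadjusted p under 0.05). Of all 9211 genes 0% passed and 4.28% had an unadjusted p under 0.05. The K27M minus control difference of the members ranged from -0.18 to 0.08 on the log2 scale, a ratio of 0.884 to 1.06, with a median of -0.06 against 0.00011 for all genes. It was below 0 for 28 members and above 0 for 8. With 1 row per merged peak it was below 0 for 14 of 20 peaks, and above 0 for 49.7% of all 8528 merged promoter peaks. No member's 95% interval reached below -0.37 or above 0.24.

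The smallest p by genotype belonged to the peak of Hist1h2ad, Hist1h2bf and Hist1h3d. Its fold enrichment was 3.04, 2.43 and 2.57 in control brainstem cultures 51, 59 and 61 and 2.32, 2.17 and 2.24 in K27M brainstem cultures 41, 59 and 61. It was 2.23, 2.33 and 2.46 in control telencephalon cultures 51, 59 and 61 and 2.47, 2.19, 2.32 and 2.38 in K27M telencephalon cultures 41, 51, 59 and 61. In brainstem the 3 control values of this uncentred measure were above the 3 K27M values, and in telencephalon the genotypes overlapped. The share of coding genes separated this way is not given. By percentile the genotypes overlapped in brainstem also. Control brainstem cultures 51, 59 and 61 were at 53.6, 4.29 and 16.4. K27M brainstem cultures 41, 59 and 61 were at 14.6, 0.808 and 3.57. The log2 difference over both regions was -0.18 (SE 0.09, limma, unadjusted p = 0.0625, adjusted p = 1.00). It ranged from -0.27 without K27M brainstem culture 61 to -0.0544 without K27M telencephalon culture 51, and was -0.11 without control brainstem culture 51. The difference between regions in the K27M effect did not pass (-0.14, SE 0.17, limma, adjusted p = 1.00). In the other direction Hist3h2ba differed by 0.08 (SE 0.08), Hist1h3e by 0.05 (SE 0.07) and Hist1h4c by 0.04 (SE 0.07), each with a limma adjusted p of 1.00. Over all members the effect of K27M in brainstem minus that in telencephalon passed for 0 of 36 (limma, 0 at an unadjusted p under 0.05), against 0% of all genes after adjustment and 3.71% at an unadjusted p under 0.05.

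**Figure D4:**
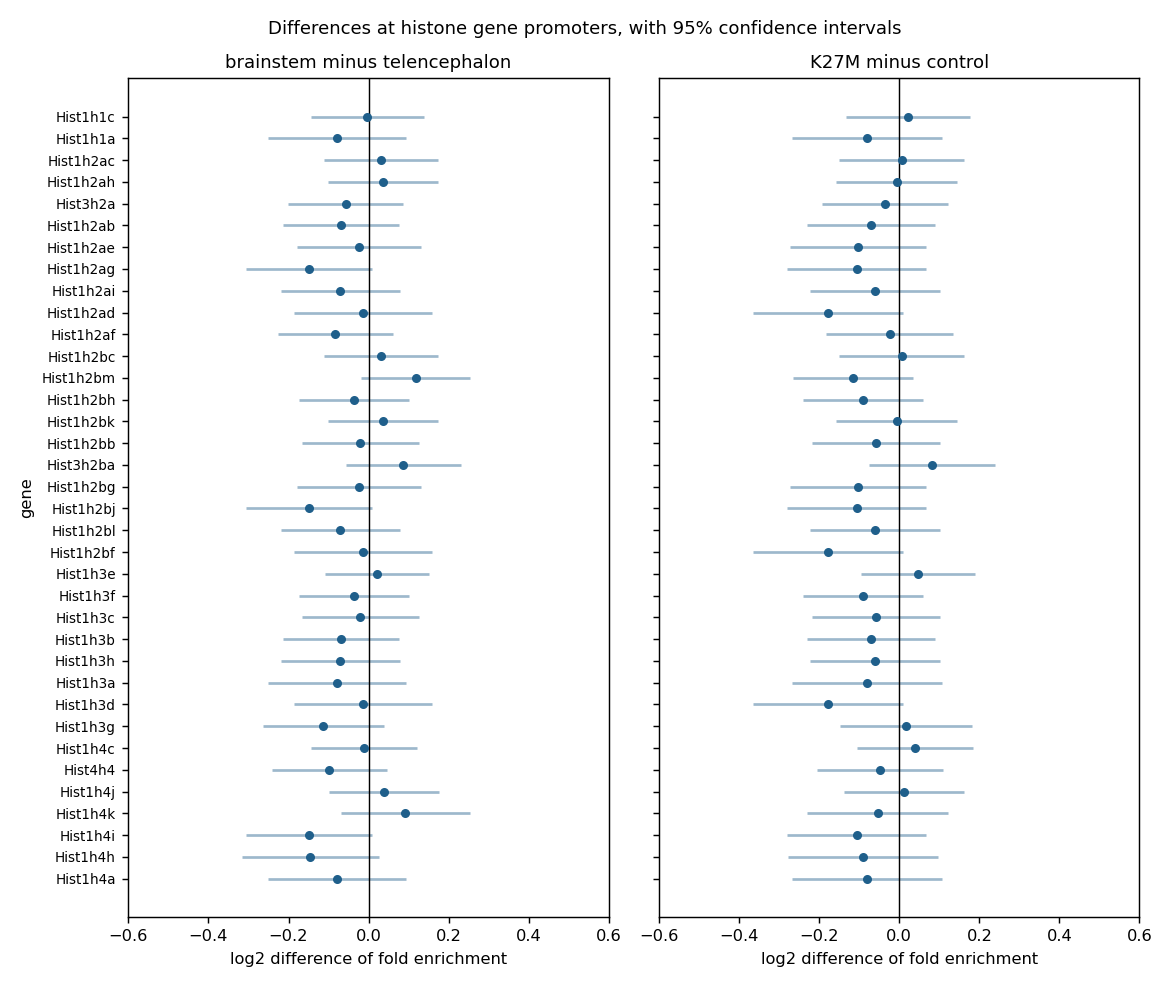
Log2 difference of centred fold enrichment (horizontal axis) for the 36 histone genes with a promoter peak in all libraries (rows), brainstem minus telencephalon on the left and K27M minus control on the right; points are limma estimates and bars are 95% confidence intervals. All points lie between -0.18 and 0.12, every interval includes 0, and genes on 1 peak have the same value.

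Peak width was compared in the same way. By region 0 of 36 members passed (limma, 0 at an unadjusted p under 0.05), against 0% of coding genes after adjustment and 5% at an unadjusted p under 0.05. The smallest p values were those of Hist1h2ah and Hist1h2bk (log2 difference -0.24, SE 0.12) and Hist3h2ba (-0.23, SE 0.12), all with a limma adjusted p of 0.963. By genotype 0 of 36 passed (limma) and 3 had an unadjusted p under 0.05, against 0% and 4.14% of coding genes. The 3 were Hist1h2ai, Hist1h2bl and Hist1h3h, an H2A, an H2B and an H3 gene on 1 peak, which makes 1 of 20 merged peaks. This peak was 2417, 1725 and 2618 bp wide in control brainstem cultures 51, 59 and 61 and 2807, 3156 and 2903 bp in K27M brainstem cultures 41, 59 and 61. It was 2439, 1559 and 2341 bp wide in control telencephalon cultures 51, 59 and 61 and 3245, 2898, 2627 and 3057 bp in K27M telencephalon cultures 41, 51, 59 and 61. Before centring, all 7 K27M values were above all 6 control values, with 2618 and 2627 bp the nearest. The share of coding genes separated this way is not given. In the centred fit the ratio was 1.33 (log2 difference 0.41, SE 0.14, limma, unadjusted p = 0.0149, adjusted p = 0.988). Next was Hist1h2af (log2 difference 0.43, SE 0.20, limma, adjusted p = 0.988). In K27M telencephalon culture 51 its peak was 5399 bp wide and was also that of Hist1h4h and Hist1h3g. In control brainstem culture 61 its value of 1604 bp was that of the Hist1h4h peak. The K27M minus control difference in width was above 0 for 31 of 36 members and for 15 of 20 merged peaks, with a median of 0.08 over members against -0.0031 over all genes. Over merged peaks the median was 0.06, and 48.9% of all 8528 merged promoter peaks were above 0.

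Genes that act with the members were given the same test. The list of 11 histone variant genes, most of which are made outside S phase as well, included H3f3a and H3f3b, which encode H3.3, and 10 of the 11 had a promoter peak in all 13 libraries. The exception, H2afx, had none in any library. Their median percentile was 64.1 and their median width 1157 bp. H3f3a had a percentile of 65.4 ± 17.04 and H3f3b of 76.7 ± 16.4 (SD, n = 13). Of 23 genes for the transcription, message processing and chaperoning of histones, 21 had a peak in all libraries and none lacked one throughout, with a median percentile of 80.2 and a median width of 1189 bp. Npat, the coactivator of the histone genes, was at 95.0 ± 2.40, Hinfp, which binds H4 promoters, at 93.7 ± 5.97, and Slbp, which binds the stem-loop of the messages, at 87.6 ± 6.504. Of these genes 0 of the 10 variants and 0 of the 21 others passed by region or by genotype (limma, fold enrichment).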

How the data were processed

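ATAC-seq libraries of 13 OPC cultures were read as 1 broad peak list each. Per the labels, the authors trimmed reads with Trim Galore 0.6.7 and cutadapt 3.4, aligned them with BWA 0.7.17-r1188 to mm10, the assembly of GRCm38, and called peaks per library with MACS2 2.2.7.1. By the methods of the study, reads on blacklisted regions were removed. For each peak the deposited lists give a fold enrichment over local background (a ratio) and the −log10 of its p-value and q-value, with a lowest −log10 q of 1.00. The authors rescaled none of these between libraries. Read counts are not in these lists, so depth is unknown, and precision is given by the spread between cultures.

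Here, a promoter was the stretch between 2 kb before and 1 kb after each GENCODE M21 start, a peak had to overlap by 1 bp, and the peak of highest fold enrichment was kept. Detection was tested with Fisher's exact test (two-sided) over genes found in 5 to 8 libraries. Log2 fold enrichment and log2 width of genes with a peak in all 13 libraries, centred on the library median, were fitted with limma 3.58.1 in R 4.3.3 (groups, and culture number as a block). Values were adjusted by Benjamini-Hochberg over all genes, at a threshold of 0.05. Tests were checked on simulated data. Python 3.11.15 and scipy 1.17.1 were used. Genes were named by a rule: members found in some libraries, the 2 highest and the lowest percentile per histone type, the 3 smallest p in each direction for fold enrichment and the 2 smallest for width, the widest and least wide peak, and members outside the Hist1 cluster. Others were named after their values were seen. Members, lists, motifs and tests were chosen with earlier results of these data known. Alternatives were an equal number of 16879 peaks per library, peaks of p at most 1e-10, a promoter of 500 bp to either side, an overlap of 300 bp, no block, no centring, genes with a peak in at least 10 libraries, 1 row per merged peak, and leaving out each library.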

Additional observations from a re-analysis of the deposited data

Results flagged for a closer look

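In K27M telencephalon, the only group of 4 libraries, 24 values were examined for a library far from the other 3, and chance flags about 1 in 20. The number of members with a promoter peak was 43 in culture 41 and 42 in each of the other 3. With the other 3 counts equal, any different count is flagged, so the rate of 1 in 20 does not hold for it. The fold enrichment of the peak at Hist1h2ab and Hist1h3b was 2.87 in culture 41 and between 3.27 and 3.34 in the others. Its cause was not tested.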

How the results depend on the processing

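The counts of members that passed by region or genotype in detection, fold enrichment or width, and by interaction in fold enrichment, were 0 under every alternative run (19 to 23 for each), those with and without the replicate block included. Same-numbered cultures correlated in their deviations from the group means with a mean of 0.0787 (range -0.10 to 0.28, 16 pairs, 6 over 0.1). For cultures of different number the mean was -0.0268 (range -0.24 to 0.33, 47 pairs, 6 over 0.1). The pairing by culture number rests on the methods of the study. With equal peak numbers a library had 38.9 members with a peak on average and the members' median percentile was 27.6, within shorter lists. With peaks of p at most 1e-10 the values were 27.1 and 37.9. In that setting 1 member kept a peak in all libraries, against 760 of the 21938 coding genes. Neither percentile was set against that of coding genes under the same setting. That threshold with control telencephalon culture 59 left out, added after seeing the data, gave 12 members and a mean of 29.2. A promoter of 500 bp to either side gave a mean of 38.5. With members of at least 50% unique words, also added later, 14 had no peak. RefSeq windows, added later, kept 31 in all libraries. Leaving out 1 library gave 36 to 39 members with a peak in all libraries, the highest without control telencephalon culture 59, 24 without any, means of 41.4 to 41.9 and median percentiles of 54.7 to 59.96. Among named differences, that of Hist1h4k by region, 0.09, ranged from -0.0244 without control brainstem culture 51 to 0.15 over the fits without 1 library, and that of Hist1h4c by genotype, 0.04, became -0.0320 with no replicate block, none of them past the threshold. The 3 genes with an unadjusted p under 0.05 for width by genotype became 0 without K27M brainstem culture 61. Without control brainstem culture 59 the genes were Hist1h2af and Hist1h4k instead. The count was highest, 5 of 36 against 4.45% of all genes, without K27M telencephalon culture 61. For width by region the count of 0 became at most 2, Hist1h2ah and Hist1h2bk. This was so with no replicate block (4.59% of all genes) and without control telencephalon culture 61 (6.75%). For fold enrichment by region the count of 0 became at most 8, without control brainstem culture 51, and by genotype at most 3, with no replicate block among others. The cause of these changes was not tested. With 3 or 4 cultures a group, unknown depth and 36 genes on 20 peaks, small differences cannot be resolved.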
